A study of Olea europaea with 6 samples.

Results

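Olive trees alternate between a year with fruit, the "on-year", and a year with little or none, the "off-year". The comparison described here sets mature off-year leaves collected in November (OFF-M, 2 arrays) against juvenile off-year leaves collected in July (OFF-J, 2 arrays), and so uses 4 of the 11 arrays of the series. The members were chosen by sample label only. All arrays carried RNA of cv. Ayvalık from a single orchard, where leaves of a pair of neighbouring trees were sampled. The other groups are mature (ON-M, 1 array) and juvenile (ON-J, 2 arrays) on-year leaves, collected one calendar year earlier in the same months, and unripe (UF, 2 arrays) and ripe (RF, 2 arrays) fruits. Leaf age and season changed together between July and November, and their parts cannot be told apart. The methods call the replicates biological without giving their trees, and a p-value here measures the spread between these RNA samples, part of which may be technical.

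Olive leaves are evergreen and live through more than a single season. While expanding, a leaf imports sugar, builds cell walls, cuticle and trichomes, and assembles its chloroplasts. Once mature it exports sugar and stores part of it, and it builds up phenolic compounds and other defenses. In the off-year there is little or no crop to draw on these reserves, and flower buds for the next season are induced on the shoots that carry these leaves.

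A probe set represents an olive EST, a short sequence read from a cDNA library, or a gene model of poplar. The study added poplar sequences because few olive ones existed, and it calls poplar the closest related species available. Levels are log2 array signals as deposited. Olive ESTs had medians of 11.34 and 11.40 in OFF-M, against 11.11 and 10.80 in OFF-J, and random sequence, spotted as a control for unspecific signal, averaged 5.24 in OFF-M and 5.25 in OFF-J. The squared correlation between replicates across olive ESTs was 0.994 in OFF-M and 0.990 in OFF-J. Calls were made by limma over all 54615 probe sets, at a Benjamini-Hochberg adjusted p under 0.05 together with a log2 difference of at least 2, a 4-fold change in signal.

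Far more olive ESTs rose than fell between juvenile and mature off-year leaves. Of 5543 olive ESTs, 163 were called higher in OFF-M (2.94%) and 16 lower (0.289%). Differences of the called ESTs lay between 2.00 and 5.42 among the increases, with a median of 2.69, and their adjusted p lay between 0.00218 and 0.0439. Decreases were smaller, with a median of -2.51 and an extreme of -3.01. The median difference over all olive ESTs was 0.11 on the log2 scale, and over the 49072 poplar models it was -0.04. With every array centred on its olive median, which lowers each difference by 0.41, 117 olive ESTs were higher and 47 lower. OFF-J replicate 2 lay below replicate 1 for 159 of the 163 raised ESTs, as it did for 72.7% of all olive ESTs, and by a median of 0.68 against 0.13. Without that array 68 were called higher and 12 lower, and without OFF-J replicate 1 the counts were 201 and 8. Without OFF-M replicate 1 they were 28 and 5, and without OFF-M replicate 2 they were 18 and 5, each time with the lone array assumed to vary like the other groups.

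**Figure D1:**
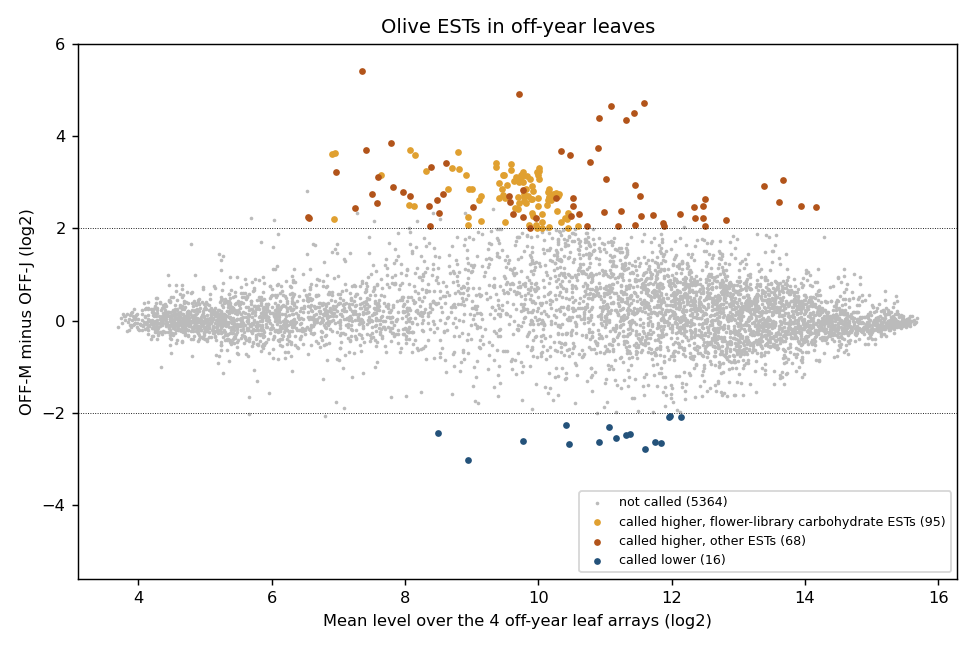
Mean level of each olive EST over the 4 off-year leaf arrays (horizontal axis, log2) and its difference OFF-M minus OFF-J (vertical axis, log2), with dotted lines at 2 and -2. The 163 called increases stretch to 5.42, the 16 called decreases to -3.01, and 95 of the increases are ESTs of a single flower library annotated with carbohydrate metabolism.

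The increases were spread unevenly over the cDNA libraries from which the ESTs came. The flower library held 109 of the 163, which is 14.4% of its 757 ESTs, and 95 of them belonged to the carbohydrate group described below. Outside that group 14 of 661 flower ESTs (2.12%) were called higher. The library of leaves and fruits gave 42 of 3706 (1.13%) and the fruitlet library 11 of 1021 (1.08%). Decreases were drawn from leaves and fruits for 13 of the 16 ESTs, from the fruitlet library for 2 and from the flower library for 1.

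The largest increase belonged to FL683787_1, a fruitlet EST without a known process. It read 10.12 and 10.01 in OFF-M, against 5.33 and 3.96 in OFF-J, where its mean lay below the random control, so that the size of its difference (5.42, standard error 0.40) depends on the background. The groups were far apart, and the EST is otherwise bright only in ripe fruit, where it averaged 13.59. GO245913_1, annotated with regulation of meristem growth and carbohydrate metabolism, read 12.08 and 12.25 in OFF-M, against 7.47 and 7.02 in OFF-J (difference 4.92, standard error 0.33, adjusted p = 0.00218 by limma). GO243651_1, annotated with proteolysis, was brighter still, at 14.07 and 13.82 in OFF-M, against 9.67 and 8.77 in OFF-J (difference 4.72, standard error 0.32). Both of these were at a moderate level in July and among the bright ESTs in November, with no overlap between the groups.

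FL684126_1 carries the term flavonoid biosynthesis, the pathway of flavonols and anthocyanins. Its levels were 13.40 and 13.44 in OFF-M, against 9.16 and 8.36 in OFF-J (difference 4.66, standard error 0.28, adjusted p = 0.00218). GO245017_1, annotated with lipid transport, read 13.65 and 13.71 in OFF-M, against 9.51 and 8.84 in OFF-J (difference 4.51, standard error 0.31). The OFF-M arrays nearly coincided for both ESTs, while the OFF-J arrays were further apart, replicate 2 being the lower. GO243695_1, without a known process, read 13.20 and 12.99 in OFF-M, against 9.30 and 8.12 in OFF-J (difference 4.39, standard error 0.43). GO245017_1 and GO243695_1 were brightest in unripe fruit, at 14.21 and 13.64, and dim in ripe fruit, at 6.94 and 5.83.

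The term response to karrikin, named after smoke compounds that promote germination in Arabidopsis, stood on GO245535_1, with 13.40 and 13.59 in OFF-M, against 9.48 and 8.79 in OFF-J (difference 4.36, standard error 0.35). GO245800_1 is annotated with the synthesis of S-adenosylmethionine, the methyl donor for lignin and many other products, and with phenylpropanoid metabolism. It read 9.59 and 9.85 in OFF-M, against 6.31 and 5.42 in OFF-J (difference 3.86, standard error 0.33). FL684059_1, an oxidation-reduction EST, read 12.78 and 12.76 in OFF-M, against 9.38 and 8.69 in OFF-J (difference 3.73, standard error 0.26). For all of these ESTs each OFF-M array lay above each OFF-J array. Of the 10 largest increases, 8 were still called with any single off-year array left out, with adjusted p up to 0.0401, and GO243695_1 and FN998538_1 lost the call without either OFF-M array (adjusted p up to 0.0557 and 0.0681).

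Among the decreases GO245304_1, annotated with response to karrikin and with syncytium formation, the merging of cells after their walls dissolve, fell the furthest. Its levels were 7.39 and 7.47 in OFF-M, against 10.63 and 10.26 in OFF-J (difference -3.01, standard error 0.26, adjusted p = 0.0035). The study also measured some ESTs by qRT-PCR, which counts the cycles needed to detect an RNA. For GO245304_1 the mean cycle was the same in OFF-M and OFF-J, and the ribosomal RNA control came slightly later in OFF-M. The fall was thus not seen there. The other called ESTs measured by qRT-PCR moved in the off-year in the same direction as on the arrays. For GO243710_1 the single qRT-PCR readings of OFF-M and OFF-J overlapped. The study does not state whether its qRT-PCR replicates came from separate trees. GO244529_1, without a known process, read 10.16 and 10.25 in OFF-M, against 12.94 and 13.06 in OFF-J (difference -2.79, standard error 0.23). The replicates of each group were close, and this EST was brightest in juvenile leaves of either year (13.43 and 13.86 in ON-J). GO243777_1, whose only term is type I hypersensitivity, fell by 2.67. FL683438_1, without a known process, read 10.29 and 10.55 in OFF-M, against 13.12 and 13.01 in OFF-J (difference -2.64, standard error 0.26). In contrast to the raised ESTs, OFF-J replicate 2 differed little from replicate 1 among the 16 decreases (median 0.09). Of the 10 largest, 5 kept the call with any single off-year array left out, FL683438_1 lost it without either OFF-M array (adjusted p up to 0.0577), and GO245517_1, GO245518_1 and GO244140_1 lost it whichever of the 4 was left out (adjusted p up to 0.292). FL684184_1 kept it only without OFF-J replicate 1 (adjusted p up to 0.0802).

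**Figure D2:**
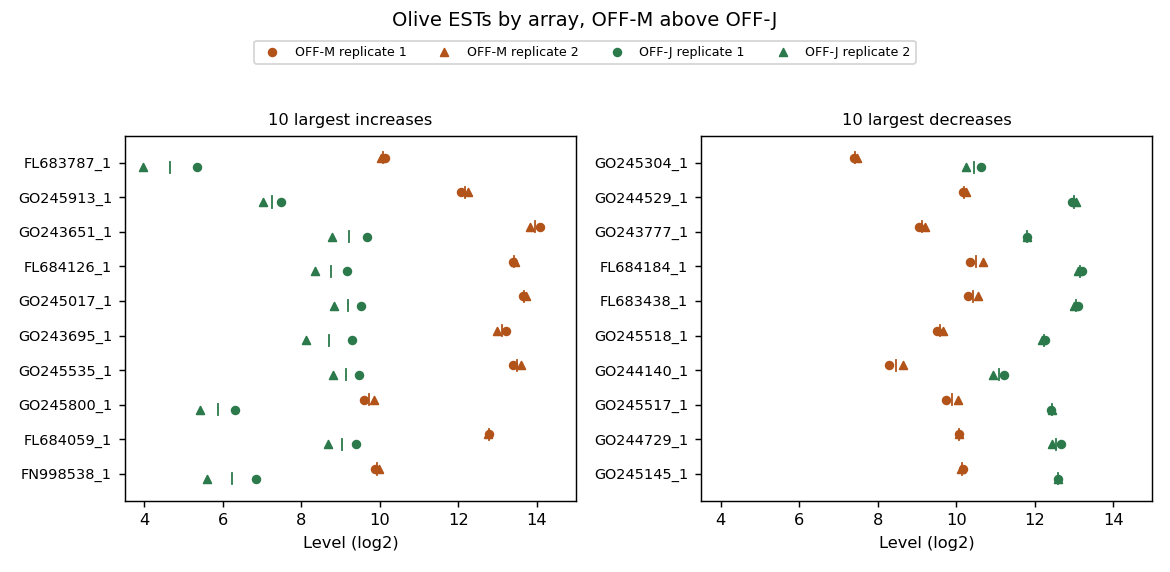
Level (log2) of the 10 olive ESTs with the largest increase (left) and the 10 with the largest decrease (right) in each off-year array, OFF-M drawn above OFF-J, circles for replicate 1, triangles for replicate 2 and ticks for the mean of both. The groups do not overlap for any of the 20 ESTs, and OFF-J replicate 2 is the lower of its pair in every increase shown, as in FL683787_1 with 5.33 and 3.96.

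Carbohydrate metabolism covers the synthesis and breakdown of sugars, starch and wall polymers. Its list had 130 transcripts, of which 105 were called higher and 1 lower, with a median difference of 2.62. Most of this came from 96 flower-library ESTs that carry carbohydrate metabolic process as their only term. The study's tables give a term only to transcripts they list, and all 96 stand in the table of this very contrast, so that their count is no independent evidence of a direction. In the limma fit 95 of them were called higher, with differences from 2.00 to 3.70 and a median of 2.72. Whether they are reads of a single transcript or of several is not told by the files. Most of their levels followed each other over the 11 arrays, with a median pairwise correlation of 0.966 and a lowest of 0.013. This is a description only, as all ESTs share the same arrays and normalization.

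The group had a median level of 11.02 and 11.28 in the OFF-M arrays, against 8.79 and 7.95 in the OFF-J arrays. In each of the 96 ESTs both OFF-M arrays lay above both OFF-J arrays, as they did in 42.2% of all olive ESTs. In the other groups the median was 9.85 in the ON-M array, 9.33 and 9.87 in ON-J, 9.34 and 9.50 in UF, and 11.69 and 12.04 in RF. Thus OFF-M stood next to ripe fruit, and juvenile off-year leaves had the lowest medians of all arrays. OFF-J replicate 2 was the lower replicate in 93 of the 96. Without it 42 ESTs of the group were called, without OFF-J replicate 1 there were 91, and without OFF-M replicate 1 or 2 there were 13 and 4. FN998538_1 had the largest difference of the group (3.70, standard error 0.40, adjusted p = 0.00635), with 9.87 and 9.98 in OFF-M, against 6.85 and 5.59 in OFF-J. FN998502_1 kept its call with any single off-year array left out, at 8.64 and 8.89 in OFF-M, against 5.15 and 5.12 in OFF-J, where its mean lay below the random control. It departed from the group in fruit, where it was dim, with means of 5.11 in UF and 5.79 in RF.

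**Figure D3:**
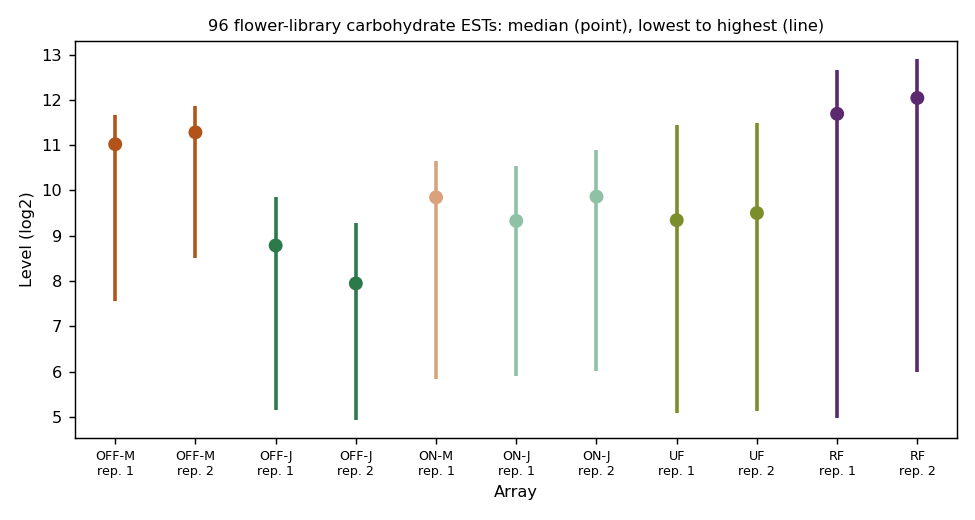
Levels (log2, vertical axis) of the 96 flower-library ESTs annotated only with carbohydrate metabolism, in each of the 11 arrays (horizontal axis), with the median as a point and a line from the lowest to the highest EST. Medians of 11.02 and 11.28 in OFF-M stand above 8.79 and 7.95 in OFF-J, and ripe fruit reaches 12.04.

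Of the 34 other carbohydrate transcripts, 10 were called higher and 1 lower, with a median of 0.22. Besides GO245913_1, they include GO243101_1, annotated with starch metabolism and circadian rhythm, which read 11.12 and 11.25 in OFF-M, against 8.69 and 8.02 in OFF-J (difference 2.83, standard error 0.34, adjusted p = 0.00849). The poplar model gw1.XII.30.1 matches a phosphoethanolamine N-methyltransferase, an enzyme of choline and phosphatidylcholine synthesis that also carries maltose and starch terms. Its levels were 9.64 and 10.00 in OFF-M, against 7.71 and 6.75 in OFF-J (difference 2.59, standard error 0.37). Both were lost without either OFF-M array or without OFF-J replicate 2 (adjusted p up to 0.0887 and 0.157). Of the 21 carbohydrate transcripts outside the study's table of this contrast, 0 were called by limma and the median was -0.06. Their absence from that table means that they missed a similar cut on these samples. The lack of calls among them was thus largely set in advance and is no independent evidence. At an unadjusted p under 0.05 and of any size, 3 of them were higher and 1 lower by limma, and 1 higher and 0 lower by the t-test of the methods.

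All further lists were drawn from words in the terms and descriptions of the study's tables, and nearly all their called members stand in its table of this contrast, so that their counts and directions are not independent evidence. The lists share members. They are read against the 1.25% called higher in OFF-M among olive ESTs outside the 96 flower ESTs (2.94% with them), and 0.0469% of poplar models. Called lower were 0.289% of all olive ESTs and 0.0163% of poplar models. Over all lists, without the 96 flower ESTs, 47 of 332 transcripts were called higher and 16 lower, and with olive-median centring these were 26 and 34. Without OFF-M replicate 1 there were 12 and 5, without OFF-M replicate 2 there were 9 and 5, without OFF-J replicate 1 there were 37 and 10, and without OFF-J replicate 2 there were 15 and 8.

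Flavonoid and phenylpropanoid metabolism had 3 of 12 transcripts called higher and 0 lower, with a median of 0.96. Of the 12, 7 were higher and 2 lower by limma at an unadjusted p under 0.05 and of any size. The t-test of the methods gave 5 and 1. Beside FL684126_1 and GO245800_1 the third called transcript was eugene3.00140920, a match to chalcone synthase, which makes the first intermediate of all flavonoids. It read 8.32 and 8.13 in OFF-M, against 5.70 and 4.98 in OFF-J (difference 2.89, standard error 0.49, adjusted p = 0.0365), a call lost whichever of the 4 off-year arrays was left out (adjusted p up to 0.288). Lipid, cutin and wax metabolism had 3 of 44 called higher and 3 lower, with a median of -1.25. At an unadjusted p under 0.05 and of any size, 4 were higher and 33 lower by limma, and 3 and 24 by the t-test of the methods. The raised members were the lipid transport EST GO245017_1, a lipid transfer protein match (gw1.VI.2898.1, difference 2.71) and the methyltransferase match named above. The call of gw1.VI.2898.1 was lost without either OFF-M array or without OFF-J replicate 2 (adjusted p up to 0.0715).

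The lowered lipid members carry fatty acid and wax terms. GO244140_1, annotated with fatty acid metabolism, oxidation-reduction and defense, read 8.28 and 8.65 in OFF-M, against 11.23 and 10.95 in OFF-J (difference -2.62, standard error 0.40, adjusted p = 0.0212). GO243991_1, with fatty acid and oxidation-reduction terms, read 9.73 and 10.10 in OFF-M, against 12.26 and 12.17 in OFF-J (difference -2.31, standard error 0.32). The poplar model eugene3.00101184 resembles CER6 of Arabidopsis, an elongase of the very long fatty acids of cuticular wax, and read 5.90 and 6.13 in OFF-M, against 8.08 and 8.57 in OFF-J (difference -2.31, standard error 0.35). None of these groups overlapped, and all 3 calls were lost whichever of the 4 off-year arrays was left out (adjusted p up to 0.2). The other 38 lipid transcripts were not called, and most of them lay below 0, as the median shows.

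Wall formation had members on both sides. Of 28 transcripts of cell wall and trichome, 6 were called higher and 5 lower, with a median of -0.35. GO245517_1 and GO245518_1, both annotated with the regulation of secondary wall formation and with abscisic acid, fell by 2.55 and 2.63 (standard errors 0.41 and 0.48), and GO245518_1 read 9.52 and 9.67 in OFF-M, against 12.27 and 12.18 in OFF-J. GO244729_1 and GO245145_1, annotated with wall formation and trichome morphogenesis, the shaping of leaf hairs, fell by 2.48 and 2.46 (standard error 0.21 each, adjusted p = 0.00337 each). GO245145_1 read 10.17 and 10.12 in OFF-M, against 12.61 and 12.60 in OFF-J. Raised members were FN998235_1 and FN998036_1, which share the terms proton transport, wall formation, cold and salt and differed by 2.78 and 2.69, and eugene3.01650006, a match to proteins related to the olive pollen allergen Ole e 1 and to extensins of the cell wall. The last read 7.64 and 7.77 in OFF-M, against 5.02 and 4.84 in OFF-J (difference 2.77, standard error 0.24), its OFF-J mean being below the random control. The ESTs within each of these pairs may be reads of the same transcript, which the files do not tell. FN998235_1 and FN998036_1 lost their calls without either OFF-M array or without OFF-J replicate 2 (adjusted p up to 0.1 and 0.165).

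Defense and biotic stress had calls in both directions. Of 51 transcripts, 15 were called higher and 5 lower, with a median of 0.07. GO245644_1, annotated with alkaloid metabolism, systemic acquired resistance and salicylic acid signalling, read 12.09 and 12.29 in OFF-M, against 8.92 and 8.09 in OFF-J (difference 3.69, standard error 0.53, adjusted p = 0.0172), a call lost whichever of the 4 off-year arrays was left out (adjusted p up to 0.158). GO243777_1, placed in the list only by the term type I hypersensitivity, stood at its other end. It read 9.05 and 9.21 in OFF-M, against 11.80 in both OFF-J arrays (difference -2.67, standard error 0.21), and kept its call with any single array left out.

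Protein folding was among the lists with a lower median. Of 19 transcripts of heat, light and protein folding, 2 were called higher and 3 lower, with a median of -0.75. FL684184_1, annotated with protein folding, stress of the endoplasmic reticulum and heat acclimation, read 10.34 and 10.68 in OFF-M, against 13.20 and 13.11 in OFF-J (difference -2.65, standard error 0.31, adjusted p = 0.00776). Of 40 transcripts of cold, drought and salt, 10 were called higher and 1 lower, but the median was 0.03, and at an unadjusted p under 0.05 and of any size 15 were higher and 11 lower by limma. Besides GO245800_1, FN998235_1 and FN998036_1, they included FN997987_1, annotated with the MAPK cascade, a relay of protein kinases, with 9.51 and 9.71 in OFF-M, against 7.32 and 6.93 in OFF-J (difference 2.49, standard error 0.29). The FN997987_1 call was lost without either OFF-M array or without OFF-J replicate 2 (adjusted p up to 0.0864).

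Hormone and karrikin terms were also split. Of 36 hormone transcripts, 8 were called higher and 4 lower, with a median of -0.22, and of 11 karrikin transcripts 3 were higher and 1 lower, with a median of -0.09. Of the karrikin ESTs named above, GO245535_1 rose and GO245304_1 fell on the arrays. The karrikin list also holds FN997782_1, a flower EST. It read 12.32 and 12.21 in OFF-M, against 8.95 and 8.40 in OFF-J (difference 3.59, standard error 0.33, adjusted p = 0.0049). GO243251_1, with karrikin, nematode and zinc terms, was raised by 2.22 (standard error 0.24). FN997782_1 lost its call without either OFF-M array (adjusted p up to 0.0515) and GO243251_1 also without OFF-J replicate 2 (adjusted p up to 0.0638).

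Proteolysis and senescence, the dismantling of proteins in ageing leaves, had 6 of 24 transcripts called higher and 3 lower, with a median of -0.62. By limma 10 of the 24 were higher and 11 lower at an unadjusted p under 0.05 and of any size, and by the t-test of the methods 7 and 9. Beside GO243651_1 stood GO244795_1, a proteolysis EST at 14.84 and 14.86 in OFF-M, against 12.02 and 11.83 in OFF-J (difference 2.92, standard error 0.24, adjusted p = 0.00337). FN998690_1 carries the terms proteolysis, ageing and response to ethylene, and read 8.97 and 9.32 in OFF-M, against 6.85 and 5.22 in OFF-J (difference 3.11, standard error 0.47). The poplar model gw1.VII.2355.1 matches SAG12, a cysteine protease that marks senescence in Arabidopsis, and shares those terms. It went the opposite way, with 6.05 and 5.84 in OFF-M, against 7.94 and 8.70 in OFF-J (difference -2.37, standard error 0.31, adjusted p = 0.0118), and rests on 1 probe. FN998690_1 and gw1.VII.2355.1 lost their calls without either OFF-M array or without OFF-J replicate 2 (adjusted p up to 0.187 and 0.12).

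The lists of chloroplast functions were short, and their calls were all increases. In photosynthesis and chlorophyll 4 of 16 transcripts were called higher and 0 lower, with a median of -0.13, and in terpenoid, carotenoid and steroid metabolism 3 of 19 were higher and 0 lower, with a median of -0.29. At an unadjusted p under 0.05 and of any size, limma gave 5 higher and 2 lower in the first list. In the second it gave 4 and 6. The t-test of the methods gave 5 and 2 in the first, and 3 and 8 in the second. GO245562_1 belongs to both, with terms for chlorophyll synthesis and for the plastid route to isoprenoids, and read 12.38 and 12.59 in OFF-M, against 10.73 and 10.11 in OFF-J (difference 2.07, standard error 0.36, adjusted p = 0.0382). GO244484_1, annotated with isoprenoid synthesis, read 13.53 and 13.52 in OFF-M, against 11.53 and 11.41 in OFF-J (difference 2.05, standard error 0.20). The chlorophyll synthesis EST GO244708_1 was dim, at 7.63 and 7.72 in OFF-M, against 5.85 and 5.04 in OFF-J (difference 2.22). Poplar models matched to a thioredoxin family protein and to a trigger factor, a chaperone (gw1.XV.1199.1), were higher by 2.52 and 2.15. None of these calls survived leaving out either OFF-M array (adjusted p from 0.0576 to 0.296 at the highest).

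Transport lists held few calls. Ion transport and homeostasis had 5 of 64 called higher and 0 lower, with a median of 0.33. In it, 49 members form a group of ESTs with monovalent cation transport among their terms, in which 0 were called and the median was 0.33. None of the 49 stands in the study's table of this contrast, so that the lack of calls in that group was largely set in advance. At an unadjusted p under 0.05 and of any size, limma gave 7 higher and 6 lower in the whole list. In that group it gave 1 higher. The t-test of the methods gave 6 and 2 in the list, and 1 higher in the group. GO246343_1, among the brighter of these, read 8.39 and 8.66 in OFF-M, against 8.50 and 7.96 in OFF-J, values that overlap. Water transport, the work of aquaporins, had 1 of 10 called higher and 0 lower, with a median of -0.22, while at an unadjusted p under 0.05 and of any size 1 was higher and 4 lower, both by limma and by the t-test of the methods. That EST, GO243501_1, with cellulose, metal ion and water transport terms, read 13.67 and 13.75 in OFF-M, against 11.39 and 11.07 in OFF-J (difference 2.48, standard error 0.25, adjusted p = 0.00538), and was no longer called once either OFF-M array was left out (adjusted p up to 0.0592). Among 76 oxidation-reduction transcripts 9 were higher and 4 lower, with a median of -0.06. By limma 18 of them were higher and 25 lower at an unadjusted p under 0.05 and of any size, and by the t-test of the methods 12 and 18. Amino acid and amine metabolism had 6 of 24 higher and 2 lower, with a median of 0.24.

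Regulators were called in small numbers. In transcription regulation 5 of 27 were higher and 2 lower, with a median of -0.09, the lower being the secondary wall ESTs named above. GO243458_1, annotated with multidimensional cell growth and transcription, read 13.49 and 13.65 in OFF-M, against 11.18 and 11.02 in OFF-J (difference 2.47, standard error 0.27). It was close to the random control in ripe fruit, at 5.21, and its call was lost without either OFF-M array or without OFF-J replicate 2 (adjusted p up to 0.0703). Protein kinases and signalling had 5 of 48 higher and 1 lower, with a median of 0.18. Flower and meristem development had 5 of 25 higher and 1 lower, with a median of -0.27, the highest being GO245913_1, the EST with the meristem growth term. By limma 6 of the 25 were higher and 8 lower at an unadjusted p under 0.05 and of any size, and by the t-test of the methods 5 and 7.

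**Figure D4:**
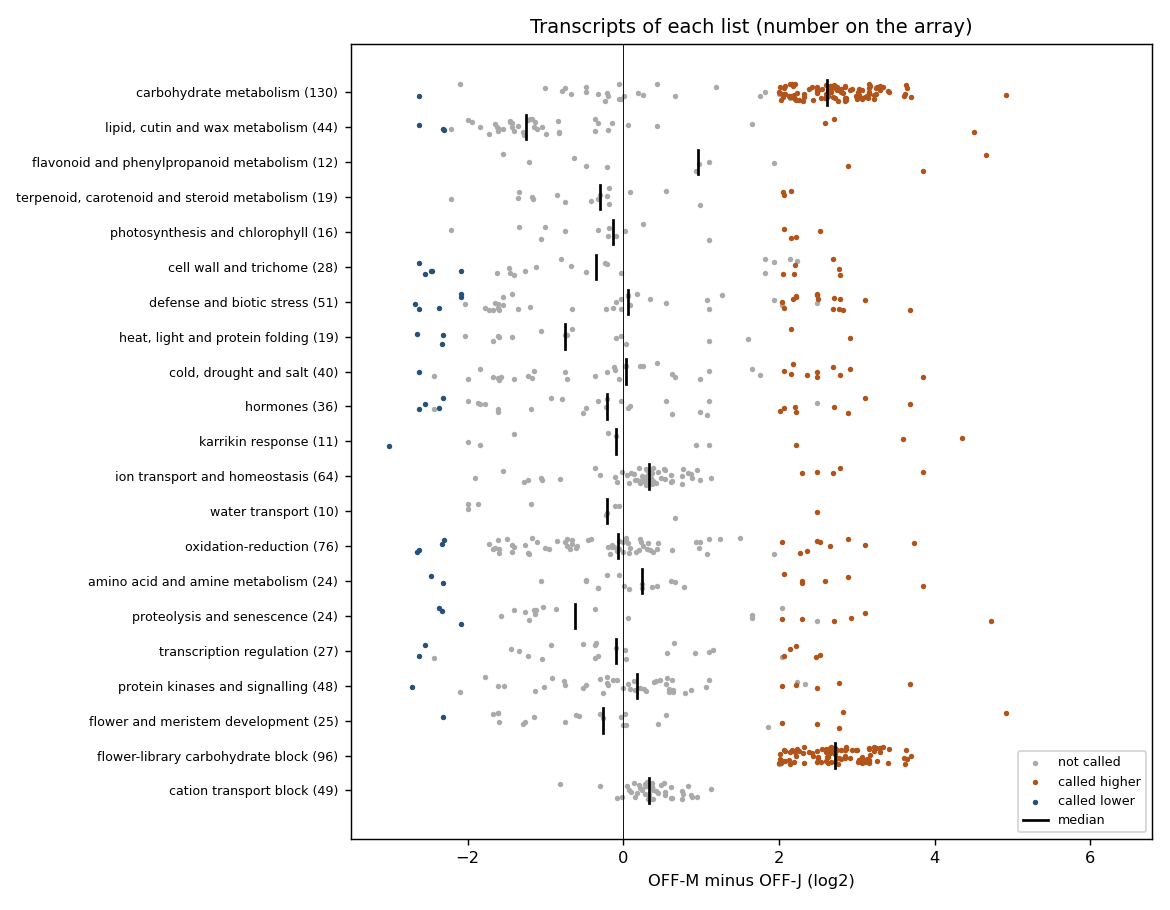
Difference OFF-M minus OFF-J (horizontal axis, log2) of every transcript of each list (rows, with the number on the array), orange for those called higher, blue for those called lower, grey for the rest, and a black bar at the median. The 96 flower-library ESTs lie at 2.00 to 3.70, lipid metabolism has the lowest median (-1.25), and the cation transport group holds no call.

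Poplar probe sets gave few calls. Of 49072 models, 23 were called higher and 8 lower in OFF-M, with absolute differences of at most 3.79. With each off-year array left out in turn, 6 to 28 were higher and 1 to 55 lower, the extremes being 55 without OFF-J replicate 2 and 1 without OFF-M replicate 1. Of the 23, 10 rest on 1 probe and 7 have a mean below the random control. The largest increase, eugene3.00090621 (1 probe), read 6.81 and 9.44 in OFF-M, against 4.41 and 4.27 in OFF-J (difference 3.79, standard error 0.69, adjusted p = 0.0482). Its OFF-M arrays were far apart, its OFF-J mean lay below the random control, and the call held only without OFF-M replicate 1 (adjusted p up to 0.303). Of the 5 largest increases, estExt_fgenesh4_pg.C_LG_II2533 was the brightest, a match to tyrosine decarboxylase, which turns tyrosine into tyramine. It read 11.73 and 12.14 in OFF-M, against 9.06 and 9.05 in OFF-J (difference 2.89, standard error 0.28, adjusted p = 0.00538), and lost the call only without OFF-M replicate 2 (adjusted p = 0.0576). The model gw1.558.6.1, matched to an integrase, was higher by 3.11, and gw1.XI.1469.1, annotated with protein folding and water deprivation, by 2.91. The first lost its call without either OFF-M array (adjusted p up to 0.0576) and the second whichever of the 4 off-year arrays was left out (adjusted p up to 0.233).

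Among the 8 decreases, eugene3.00140935, a putative protein kinase with 1 probe, read 5.35 and 5.57 in OFF-M, against 8.14 and 8.21 in OFF-J (difference -2.72, standard error 0.21, adjusted p = 0.0031) and kept the call with any single array left out. The replicates were close and the groups did not overlap. The strongest decrease, grail3.7874000101 (1 probe), read 6.44 and 6.43 in OFF-M, against 9.11 and 9.47 in OFF-J (difference -2.85, standard error 0.33). A match to a metalloprotease, grail3.0017030801, was lower by 2.33, its OFF-M mean being below the random control. Both lost their calls without either OFF-M array or without OFF-J replicate 2 (adjusted p up to 0.0781 and 0.157). Poplar probes were made for another species, so that a low value can mean a poor match as well as a low level.

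The ESTs that changed in off-year leaves were then followed in on-year leaves, whose arrays are different ones. Of the 163 raised olive ESTs, 127 were also above 0 between ON-M and ON-J, against 36.4% of all olive ESTs, but the median there was only 0.34, and 9 were called higher and 4 lower. The 127 were 81 of the 95 carbohydrate flower ESTs, most of which followed each other in level, and 46 of the 68 other ESTs. All 16 lowered ESTs were called lower in the on-year too, with a median of -4.92 against -2.51 in the off-year. In the on-year 253 olive ESTs were called lower in all (4.56%) and 10 higher (0.18%). The calls of both years shared 29 olive ESTs, 16.2% of those of the off-year and 11.0% of those of the on-year, 25 of them in the same direction. The ON-M group is a single array with a low olive median (10.66). On-year and off-year leaves differ in calendar year as well as in crop, and the methods describe separate trees for each state. Calendar year, tree and crop cannot be told apart.

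The difference between both years was tested as an interaction, called at an adjusted p under 0.05. It was called for 83 of 5543 olive ESTs (1.5%), and for 17 of the 179 that changed in off-year leaves, and with olive-median centring for 41 and 8. Among the 179, leaving out a single OFF-M, OFF-J or ON-J array gave 4 to 9 calls, except for 20 without OFF-J replicate 1. FL684126_1, the flavonoid EST, read 8.65 in ON-M, against 10.79 and 10.99 in ON-J, so that its on-year difference was -2.24 and its interaction 6.90 (standard error 0.44, adjusted p = 0.00125). GO243710_1, annotated only with metabolic process, showed the largest interaction among the named ESTs, 7.25 (standard error 0.64, adjusted p = 0.00531). It read 10.16 and 9.97 in OFF-M, against 7.47 and 5.99 in OFF-J, and 5.58 in ON-M, against 9.54 and 9.46 in ON-J, and its off-year call was lost without either OFF-M array (adjusted p up to 0.0906). On the arrays the 2 years thus moved in opposite directions in these ESTs. Mature leaves were the brighter in the off-year and the dimmer in the on-year, the on-year part resting on the single ON-M array. The study's qRT-PCR, set against its ribosomal RNA control, did not show this reversal. There FL684126_1 was higher in mature leaves of both years. GO243710_1 was higher on average in mature leaves of the off-year, with overlapping readings, but nearly level between the on-year leaves.

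Among the other large increases, GO245017_1 (lipid transport) and FL683787_1 also had on-year differences below 0, -1.06 and -1.53, with interactions of 5.56 and 6.95 (adjusted p = 0.00531 and 0.00634). FL683787_1 read 4.65 in ON-M, below the random control as in OFF-J, so that the sizes of its on-year difference and interaction depend on the background. In contrast GO245535_1, the karrikin EST, was raised in both years, by 4.36 and 3.79, and its interaction of 0.57 was not called (adjusted p = 0.85). GO243458_1 rose by 2.47 in the off-year and by 2.43 in the on-year, and the tyrosine decarboxylase match by 2.89 and 3.19. The trichome ESTs GO244729_1 and GO245145_1 fell in both years and further in the on-year, to 7.93 and 7.75 in ON-M, with interactions of 2.54 and 2.84 (adjusted p = 0.0302 and 0.0219). For the 96 flower ESTs the interaction had a median of 2.43 and an unadjusted p under 0.05 in all 96, but 1 was called, FN998502_1.

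**Figure D5:**
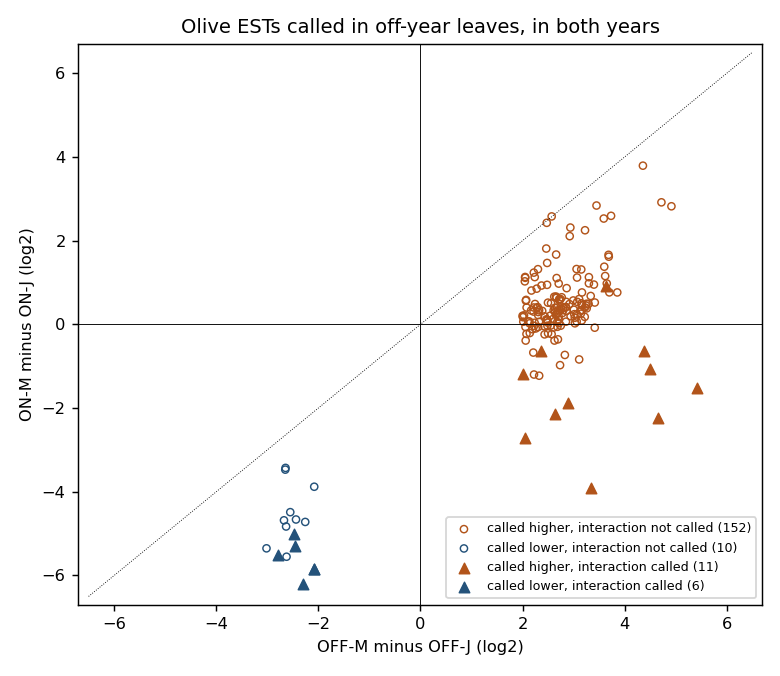
Difference OFF-M minus OFF-J (horizontal axis, log2) against ON-M minus ON-J (vertical axis, log2) of the 179 olive ESTs called in off-year leaves, with filled triangles where the interaction was called and a dotted line where both are equal. The 16 decreases lie below the line, further down in the on-year, and most increases lie just above 0 in the on-year, with a median of 0.34.

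Markers of other organs were checked in the same arrays. Of 8 ESTs that mark ripe fruit, 1 was called higher in OFF-M (FL683787_1), and the 8 lay between 7.05 and 10.12 in OFF-M, against 3.96 to 8.23 in OFF-J and 13.57 to 15.45 in RF. Their summed level on the log2 scale was 11.26 and 11.33 in OFF-M, against 10.40 and 9.64 in OFF-J, and without FL683787_1 it was 10.39 and 10.60 in OFF-M, against 10.36 and 9.61 in OFF-J. The study chose both fruit lists between ripe and unripe fruit on these same fruit arrays, so they need not set fruit apart from leaves. From the unripe list, GO244680_1 averaged 14.29 in OFF-M and 14.23 in OFF-J, above its 13.50 in UF. GO246036_1 averaged 12.72 in OFF-J and 12.78 in UF. Of the 7 ESTs that mark unripe against ripe fruit 0 were called. At an unadjusted p under 0.05 and of any size, 1 was higher and 1 lower by limma, and 0 and 1 by the t-test of the methods. The higher was FL684196_1, a proteolysis EST with a difference of 1.65. Its adjusted p by limma was 0.0427, and it missed the call only because its difference was under 2. The photosystem EST GO243351_1 read 13.09 in both OFF-M arrays, against 13.22 and 13.14 in OFF-J. It averaged 4.93 in RF but 13.10 in UF, as bright as in leaves, and so it sets leaves apart from ripe fruit and not from unripe fruit. GO244126_1, an EST of ferredoxin metabolism and photosynthetic electron transport, read 9.59 in both OFF-M arrays, against 10.22 and 9.35 in OFF-J, and averaged 6.52 in UF and 5.19 in RF, below every off-year leaf array. The part of these markers in the results above was not tested, and fewer cells of a type cannot be told apart from less RNA per cell in such bulk samples.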

How the data were processed

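RNA of 6 groups was labelled with Cy3 and hybridized to a one-colour oligonucleotide array. The authors quantified the scans with DEVA. Background subtraction, quantile normalization and RMA followed, and the deposited values are log2 levels, 1 per probe set and array. No version of RMA is given in the sources used here. These values were taken as deposited. A table of the authors' mean per group, also log2, equalled the means of the arrays (largest difference 0.0). Olive probe sets had 3 probes each, poplar ones 1 to 3. The arrays numbered 11, and their number limits the precision. One random control set was left out, which left 54615.

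limma 3.58.1 in R 4.3.3 was fitted to all 11 arrays with a mean for each group and two-sided tests (residual degrees of freedom 5, prior 3.67) and tested on simulated data. The single ON-M array was assumed to vary like the others. The alternatives are in the closing section.

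Terms and descriptions come from the study's tables (712 transcripts, 708 of them on the array), and the annotated olive genome matched 0 probe set names, so that no sequence is shown. Named transcripts are the 10 olive and 5 poplar calls with the largest difference in each direction, up to 3 called members of each list in each direction (in a list without calls, the 2 brightest), the transcripts discussed by the study and its fruit and photosynthesis markers. Members, lists and alternatives were chosen with earlier results of these data known. The fold changes and p-values that the authors give in those tables were not used. Python 3.11.15 with pandas 2.3.3, numpy 2.4.6 and matplotlib 3.10.9 drew the summaries.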

Additional observations from a re-analysis of the deposited data

Results flagged for a closer look

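Groups of 2 arrays are too small for a check on single outlying samples. The 11 named transcripts that were called in off-year leaves and whose change differed between years by the interaction test (off-year difference minus on-year difference, adjusted p under 0.05 by limma) are given here. With a rise in the off-year and a difference below 0 in the on-year they are GO243710_1 (7.25), FL683787_1 (6.95), FL684126_1 (6.90), GO245017_1 (5.56), GO243695_1 (5.03) and the poplar model gw1.558.6.1 (3.44). The on-year fall of GO243710_1 and FL684126_1 was not seen in the study's qRT-PCR, set against its ribosomal RNA control. FL683787_1 lay below the random control in OFF-J and in ON-M, and the size of its value depends on the background. FN998502_1, of the flower-library carbohydrate ESTs, was above 0 in both years (interaction 2.72), with an OFF-J mean below the random control. GO243991_1 (3.91), GO245145_1 (2.84), GO244529_1 (2.72) and GO244729_1 (2.54) were lower in both years and further below in the on-year. The ON-M group had 1 array, and calendar year, tree and crop cannot be told apart.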

How the results depend on the processing

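For OFF-M against OFF-J the 4 counts (163 olive ESTs higher and 16 lower, 23 poplar models higher and 8 lower) stayed within 1.5 times under the 4 off-year arrays alone, a prior following intensity, median centring, repeated quantile normalization, removal of the brightness trend, a mean log2 value of at least 6 and, for olive, olive probe sets alone. Poplar decreases numbered 13 with the 7 leaf arrays alone, without the ripe fruit arrays, and by the methods' t-test at an unadjusted p, which otherwise gave 163, 17 and 23. After adjustment that test gave 0, 0, 0 and 0. limma at an unadjusted p gave 175, 18, 42 and 24, the adjusted p alone 354, 80, 58 and 36, and a log2 difference of at least 1 the same 354, 80, 58 and 36. Olive-median centring gave 117, 47, 10 and 24. Without the flower-library carbohydrate ESTs 68 olive ESTs were higher. With each off-year array left out in turn the counts ranged over 18 to 201, 5 to 12, 6 to 28 and 1 to 55.

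The interaction, called for 83 olive ESTs, 17 of them changed in off-year leaves, was called for 11 of the changed ones with the 7 leaf arrays alone, for 41 and 8 with olive-median centring, and for 1848 and 165 at an unadjusted p. Single arrays left out gave 18 to 79 and 4 to 20, ON-M not being one of them as its only array. List members, 47 higher and 16 lower without the flower ESTs, were 26 and 34 with olive-median centring and 9 to 37 and 5 to 10 with an array left out.

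Whether replicate numbers pair the samples is not given. Deviations of equally numbered arrays from their group means correlated at -0.03 between OFF-M and OFF-J. Over all pairs of groups they ranged from -0.25 (OFF-J and ON-J) to 0.19 (OFF-M and ON-J), which cannot settle it. With the replicate block 156 and 13 olive ESTs and 20 and 8 poplar models were called, and interactions fell to 30 and 9. Of 56 named calls, 17 held with each off-year array left out in turn and 53 with the block, and none changed sign under any alternative. Causes were not tested.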
